A study of Mus musculus with 13 samples.

Results

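Total RNA of mouse embryonic fibroblasts lacking IMP1 or IMP2 was set, as 1 group of 2 knockout (KO) libraries, against 2 wild-type (WT) libraries, to find autosomal genes that differ in the same direction in both knockouts. The 4 libraries were chosen by their labels from the 13 of the series and comprise 1 each of IMP1 WT, IMP2 WT, IMP1 KO and IMP2 KO. The cells, fibroblasts of the E12.5 embryo, were grown in serum-containing medium, and the labels name no treatment other than the deletion. The labels do not give the strain, the sex, the number of embryos or clones behind a library, or whether a knockout and the WT of the same name come from 1 litter. Such a knockout and WT are called a pair below. The knockout group therefore holds a pair of genotypes rather than replicates of one, and its spread includes any difference between the deletions. The other 9 libraries are pull-downs with antibodies to IMP1, to IMP2 or with control IgG, 3 of each.

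IMP1 and IMP2 are products of the genes Igf2bp1 and Igf2bp2. They are RNA-binding proteins of the embryo that attach to selected messages in the cytoplasm, among them that of the growth factor IGF2, and influence how long those messages last, where they are held and how often they are translated. IMP1 is nearly confined to fetal tissue and tumours, whereas IMP2 stays on in many adult tissues and is tied to growth and metabolism through mTOR signalling. Embryonic fibroblasts are a mixed culture of mesenchymal cells from many parts of the body, and they retain in culture much of the positional transcription factor programme of the part they came from.

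The libraries held 11430002 to 17225308 counts in genes, and each level below is in CPM, a library's counts at a common library size, scaled by TMM, which corrects for composition. Across the 14064 genes tested, which are not independent, log2 CPM of the WT libraries correlated with each other at r = 0.9879, the KO libraries with each other at r = 0.8588, and a KO with a WT library at 0.8826 to 0.9079. By correlation the knockouts stood farther from each other than either did from the wild types. By a chi-square of counts per degree of freedom, the distance between the knockouts (243.4) was like that of the IMP2 pair (249.6) and above that of the IMP1 pair (126.2). The median absolute difference per gene was 0.18 on the log2 scale between the WT libraries and 0.424 between the KO libraries. Igf2bp1 had 31.9 CPM in IMP1 WT, 23.6 in IMP2 WT, 3.28 in IMP1 KO and 16.3 in IMP2 KO, and was lowest in its own knockout. Igf2bp2 had 167 CPM in IMP1 WT, 147 in IMP2 WT, 133 in IMP1 KO and 28.3 in IMP2 KO, and was likewise lowest in its own knockout. The Y-linked genes Ddx3y, Uty, Kdm5d and Eif2s3y were present in both WT libraries, Ddx3y at 50.4 and 113 CPM. In both KO libraries they were at or near 0, Ddx3y at 0 and 0.184 CPM. Xist, transcribed from the inactive X chromosome, had 4.36 CPM in IMP1 WT, 0 in IMP2 WT, 10.1 in IMP1 KO and 7.55 in IMP2 KO. The sex of the cells and the deletion cannot be told apart, for autosomal genes as well.

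Markers of cell types also moved between libraries. The 20 fibroblast and mesenchyme markers were all detected in each library and summed to 52369 CPM in IMP1 WT, 66074 in IMP2 WT, 40880 in IMP1 KO and 64758 in IMP2 KO. The 24 cartilage markers summed to 1096 and 1267 CPM in the WT libraries, 3175 in IMP1 KO and 21031 in IMP2 KO. The higher sum in IMP1 KO did not hold for most of them. Of the 24, 4 were at 0 there, and the 19 tested had median log2 ratios of -1.04 in the IMP1 pair and 3.96 in the IMP2 pair. The 14 bone markers summed to 11488 and 16166 CPM in WT, 97.3 in IMP1 KO and 2822 in IMP2 KO. Spp1, a secreted phosphoprotein of bone and of stressed fibroblasts, made up nearly all of each sum except in IMP1 KO, with 26.5 CPM. Without Spp1, a sum added after the levels were seen, the other 13 had 44.9 and 44.1 CPM in WT, 70.9 in IMP1 KO and 135 in IMP2 KO. The 20 macrophage markers summed to 40.5 and 55.0 CPM in WT, 14.8 in IMP1 KO, where 12 of them were at 0, and 497 in IMP2 KO. The summed level of the 13 adipocyte markers was higher in both knockouts, at 158 and 257 CPM against 36.7 and 36.0, although 7 of the 13 were at 0 in IMP1 KO and 2 in IMP2 KO. The summed level of the 18 neural and glial markers was lower, at 145 and 67.5 CPM against 329 and 268. The 30 skeletal muscle markers ran from 18.97 CPM in IMP2 KO to 359 in IMP1 WT. Endothelial markers (16 genes) were at 86.5 to 121 CPM, epithelial markers (16) at 8.88 to 47.1 and erythroid markers (12) at 0.335 to 2.89. In total RNA, fewer cells of a type and less RNA per cell cannot be told apart, and the part of cell mixture in the results below was not tested.

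**Figure D1:**
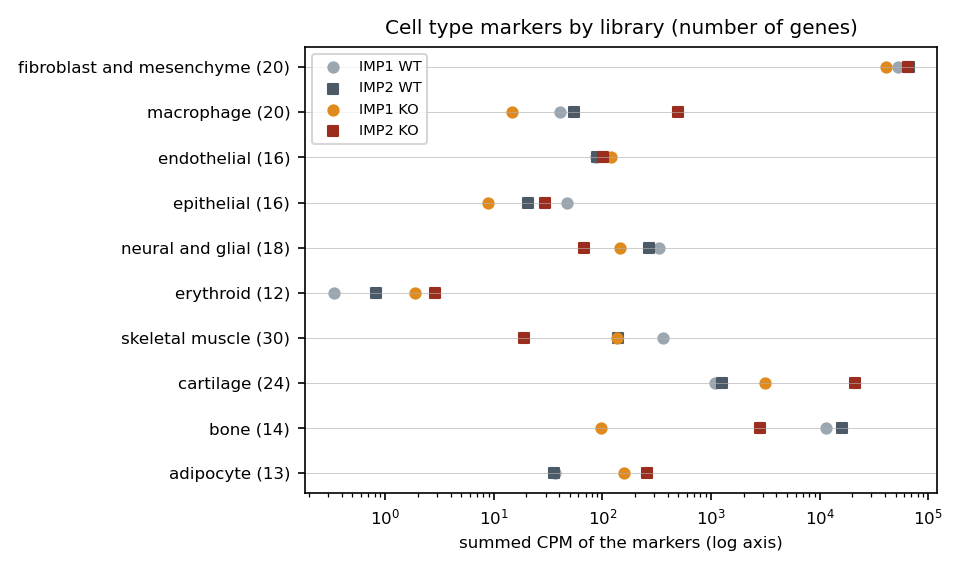
Summed CPM (log axis) of cell type markers in the 4 total RNA libraries, 1 point per library; circles are the IMP1 pair, squares the IMP2 pair, pale and dark grey WT, orange and red KO, with the number of genes in brackets. Fibroblast markers sat between 40880 and 66074 CPM in the 4 libraries, while cartilage and macrophage markers were highest in IMP2 KO. The bone sum is nearly all Spp1, except in IMP1 KO.

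No autosomal gene passed the main test, so the genes that stood at least 2-fold from wild type in the same direction in both knockouts are given as a description, and none of them is a call. With edgeR's quasi-likelihood test and Benjamini-Hochberg adjustment over all 14064 genes tested, 0 of 13250 autosomal genes were higher and 0 lower (0% each) at an adjusted p under 0.05. At an unadjusted p under 0.05 there were 795 higher (6%) and 780 lower (5.89%), and the lowest adjusted p was 0.14. DESeq2 called 265 genes higher (2%) and 313 lower (2.36%), and limma voom called 0 in either direction. Left with 1 knockout, edgeR takes the spread from the WT libraries alone. It then called 2477 genes higher and 2433 lower without IMP1 KO, and 1342 and 1657 without IMP2 KO, while without either WT library it called 0. An exact permutation test of 2 libraries against 2 cannot go below a 2-sided p of 0.333 for a single gene. The biological coefficient of variation in the edgeR fit was 39.9%, with 2 residual degrees of freedom. Since no gene passed, levels are described below as higher or lower, with their values, and the p-values given are those of edgeR unless another tool is named.

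Both KO libraries lay above both WT libraries for 3158 tested autosomal genes (23.8%) and below them for 3060 (23.1%). These counts were 4003 to 5878 and 3741 to 5771 with any 1 library left out, highest without IMP1 KO (44.4% and 43.6%). Among the 9928 with at least 10 CPM in some library, 203 (2.04%) were higher by 2-fold or more in both pairs, and 254 (2.56%) were lower by as much. These are termed shared genes below. The shared higher genes were 36.8% of the 552 genes (5.56%) at least 2-fold higher in IMP1 KO and 26.2% of the 776 (7.82%) in IMP2 KO. The shared lower genes were 36.1% of the 703 (7.08%) lower in IMP1 KO and 34.1% of the 745 (7.5%) lower in IMP2 KO. Another 70 genes (0.705%) were at least 2-fold higher in IMP1 KO and lower in IMP2 KO, and 186 (1.87%) were lower in IMP1 KO and higher in IMP2 KO, which is 23.97% of the genes higher in IMP2 KO and 26.5% of those lower in IMP1 KO.

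The shared lower genes reached further from wild type than the shared higher ones. Their median log2 ratios were -2.19 in the IMP1 pair and -2.21 in the IMP2 pair, with median group means of 40.3 CPM in WT and 8.67 in KO. At least 8-fold lower in both pairs were 41 genes. The shared higher genes had median log2 ratios of 1.8 and 1.93, from 7.82 CPM in WT to 38.7 in KO, and 9 were at least 8-fold higher in both. The size of the difference was often unequal in the knockouts, since the ratios of the pairs lay within 1.5-fold of each other for 87 of the 203 higher and 98 of the 254 lower genes. Nearly all were protein-coding (196 and 248).

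**Figure D2:**
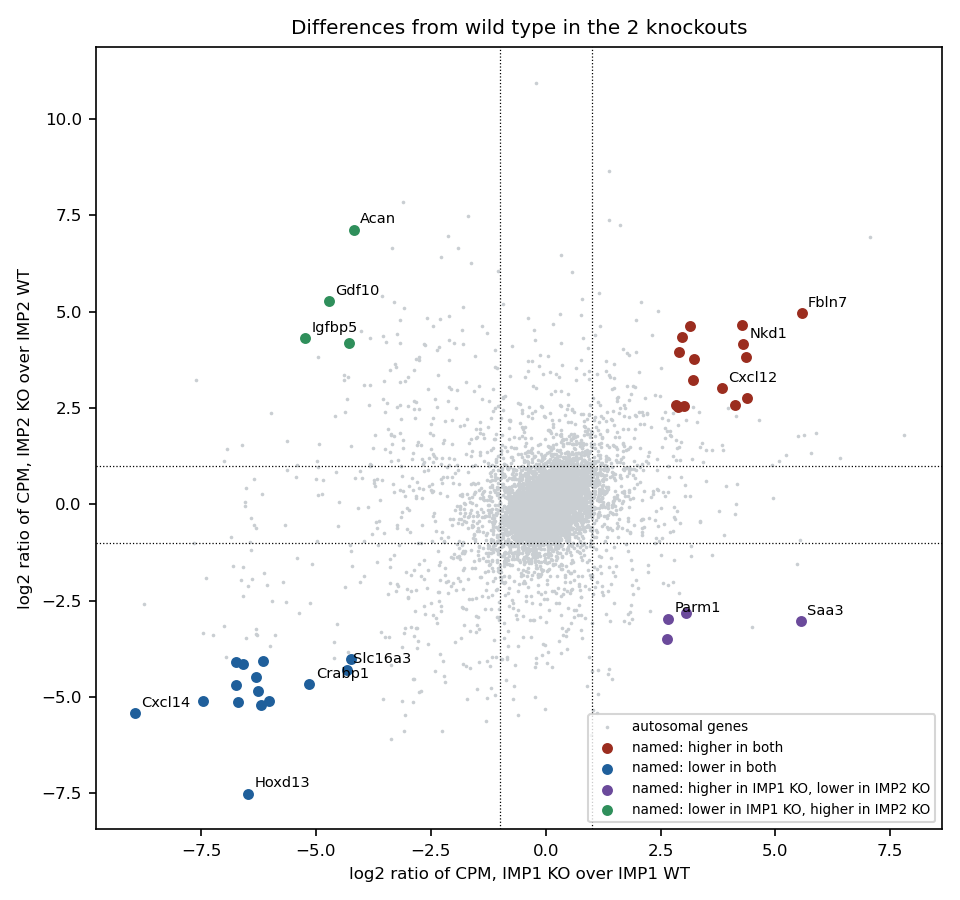
Log2 ratio of CPM in the IMP1 pair (horizontal) against that in the IMP2 pair (vertical) for the 9928 autosomal genes with at least 10 CPM in 1 library (grey), with the named genes in colour and dotted lines at 2-fold. The top right holds the 203 shared higher and the bottom left the 254 shared lower genes, and the other corners the 70 and 186 genes of opposite direction.

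The gene farthest above wild type in both knockouts was Fbln7 (ENSMUSG00000027386; GRCm38.p6 chromosome 2, 128863865 to 128897034), which encodes a secreted fibulin of the matrix. It had 2.88 CPM in IMP1 WT, 3.74 in IMP2 WT, 143 in IMP1 KO and 122 in IMP2 KO. The log2 fold change was 5.31, with an SE of 0.242 (adjusted p = 0.14). The groups did not overlap, and the libraries within each group were close. Nkd1 (ENSMUSG00000031661; chromosome 8, 88521342 to 88594887), an intracellular inhibitor of Wnt signalling that binds Dishevelled, had 7.51 and 8.13 CPM in WT, 150.01 in IMP1 KO and 148 in IMP2 KO. Its log2 fold change was 4.25 (SE 0.158, adjusted p = 0.14), with the lowest unadjusted p of the comparison. Cxcl12 (ENSMUSG00000061353; chromosome 6, 117168535 to 117181368), the stromal chemokine that holds CXCR4-bearing cells, had 736 CPM in IMP1 WT, 780.0 in IMP2 WT, 10467 in IMP1 KO and 6333 in IMP2 KO. Both knockouts were thus more than 8-fold above both wild types for this abundant message (log2 fold change 3.47, SE 0.47).

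The other named higher genes include matrix and membrane proteins. Col14a1, a collagen that sits on the surface of fibrils, had 4.23 and 5.20 CPM in WT and 84.3 and 135 in IMP1 KO and IMP2 KO. Col8a2, a short-chain network collagen, had 17.4 and 25.9 CPM in WT and 161 and 246 in KO. Matn3, a cartilage matrix adaptor, had 1.34 and 0.468 CPM in WT and 10.9 and 9.21 in KO, the lowest level among the named higher genes. Aoc3, an amine oxidase of the cell surface, was at 10.0 and 19.8 CPM in WT, 210.4 in IMP1 KO and 133 in IMP2 KO. Piezo2, a mechanically gated channel, was at 11.5 and 12.2 CPM in WT, 200.5 in IMP1 KO and 73.9 in IMP2 KO. For all of these the KO libraries lay above both WT libraries, with IMP1 KO the higher of the knockouts for Aoc3 and Piezo2 and IMP2 KO for both collagens.

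Foxd1, a forkhead factor of kidney stroma and mesenchyme, was at 11.9 and 10.8 CPM in WT and 89.0 and 63.3 in IMP1 KO and IMP2 KO. Kank4 (0.537 and 0.760 CPM in WT, 13.6 and 12.6 in KO), Ablim1 (9.32 and 12.3, 67.8 and 73.7) and Phactr1 (3.29 and 4.39, 31.8 and 61.3) encode proteins that act on actin. Adcy1, an adenylyl cyclase, and the tetraspanin Tspan18 were also among the 15, with log2 fold changes of 2.79 (SE 0.221) and 4.14 (SE 0.629). All 15 passed DESeq2's threshold, but they were picked for large ratios in these same libraries, so this is no support. For the 15 the log2 fold change of the edgeR fit ran from 2.71 (Ablim1) to 5.31.

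**Figure D3:**
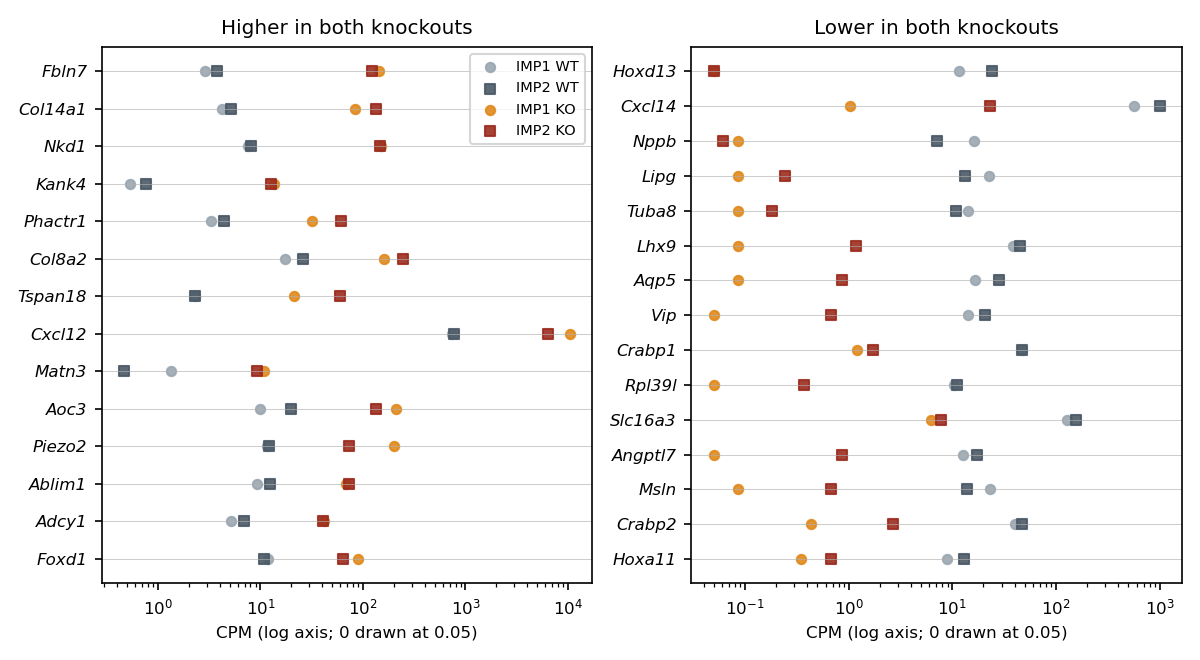
CPM (log axis) of 14 of the named genes higher (left) and the 15 lower (right) in both knockouts, 1 point per library; circles are the IMP1 pair, squares the IMP2 pair, greys WT, orange and red KO, and 0 is drawn at 0.05. In every row the KO points lie on 1 side of both WT points, which the rule for naming genes required. IMP1 KO is the lower of the knockouts for most lower genes, such as Cxcl14 at 1.03 against 23.3 CPM.

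Lowest against wild type was Hoxd13 (ENSMUSG00000001819; chromosome 2, 74668225 to 74671603), the transcription factor of the distal limb and genital tubercle. It had 11.7 CPM in IMP1 WT and 24.2 in IMP2 WT, 588 counts together, and 0 counts in both KO libraries. That is at least 170.8-fold lower, taking a floor of 3 counts over the KO group. Cxcl14 (ENSMUSG00000021508), a chemokine of skin and mesenchyme, had 572 CPM in IMP1 WT, 1003 in IMP2 WT, 1.03 in IMP1 KO and 23.3 in IMP2 KO, so that the groups stood apart although the knockouts differed (log2 fold change -6.01, SE 1.68). Nppb, the B-type natriuretic peptide, had 16.03 and 7.07 CPM in WT and 2 counts in both KO libraries together, a ratio of pooled counts of 157 (95% counting interval 43.1 to 1300).

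Crabp1 (ENSMUSG00000032291; chromosome 9, 54764748 to 54773110) and Crabp2 encode the cellular binding proteins of retinoic acid, and both were among the named lower genes. Crabp1 had 47.2 and 46.7 CPM in WT, 1.21 in IMP1 KO and 1.72 in IMP2 KO, with close values within each group (log2 fold change -4.98, SE 0.259, adjusted p = 0.154). Crabp2 had 40.1 and 47.4 CPM in WT, 0.431 in IMP1 KO and 2.70 in IMP2 KO. Slc16a3 (ENSMUSG00000025161; chromosome 11, 120948484 to 120959000), which encodes the lactate exporter MCT4, had 128 CPM in IMP1 WT, 155 in IMP2 WT, 6.21 in IMP1 KO and 7.80 in IMP2 KO. Its log2 fold change was -4.33 (SE 0.231, adjusted p = 0.154). Lhx9, a LIM homeobox factor of limb and gonad, had 38.5 and 44.7 CPM in WT, 0.0862 in IMP1 KO and 1.17 in IMP2 KO.

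The remaining named lower genes were at or below 28.4 CPM in WT and below 1 CPM in both knockouts. They were the endothelial lipase Lipg, the tubulin Tuba8, the water channel Aqp5, the neuropeptide gene Vip, the ribosomal protein paralogue Rpl39l, the secreted angiopoietin-like Angptl7, the mesothelial surface protein Msln and Hoxa11. Their log2 fold changes ran from -6.61 (Lipg, SE 0.63) to -4.37 (Hoxa11, SE 0.502), and IMP1 KO had the lower level in each of the 8. Rpl39l shares most of its coding sequence with Rpl39, so its reads may not have been assigned fully. Anxa8, an annexin of the membrane, is no named gene by rule but had the third-lowest p, at 131 and 124 CPM in WT and 12.2 and 11.2 in KO (log2 fold change -3.44, SE 0.157, adjusted p = 0.14). The gap junction protein gene Gja1, also among the 10 lowest p-values, had 529 and 554 CPM in WT and 75.8 and 59.1 in KO (adjusted p = 0.196).

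Genes of glycolysis and of the hypoxia response were lower in both knockouts for most of the list. Glycolysis splits glucose to pyruvate in the cytosol, and many of its enzymes, with the glucose importer and lactate exporter, are induced by the factor HIF1 when oxygen is short. Of 30 genes, 29 passed the filter on low counts, and 23 of those 29 lay below both WT libraries in both KO libraries, against 23.1% of all autosomal genes tested. Without IMP1 KO or without IMP2 KO the count was 25 or 24, against 43.6% and 41.6% of all genes. Pfkm alone lay above. At least 2-fold lower in both pairs were 11, against 4.08% of all genes, and 0 were higher. The median log2 fold change was -1.05 (0.03 over all genes), with median log2 ratios of -0.8 in the IMP1 pair and -1.25 in the IMP2 pair. None passed edgeR's adjusted threshold, and 14 had an unadjusted p under 0.05, against 11.9% of all genes in either direction. DESeq2 called 11 lower, against 2.36% of all genes.

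At the entry of the pathway, the glucose transporter gene Slc2a1 (chromosome 4, 119108745 to 119137330) had 174 CPM in IMP1 WT, 180.3 in IMP2 WT, 45.9 in IMP1 KO and 47.4 in IMP2 KO. The knockouts were equal to within 2 CPM of each other, and the log2 fold change was -1.92 (SE 0.143, adjusted p = 0.196). Hexokinase Hk2, which traps glucose in the cell, had 42.9 and 39.2 CPM in WT and 20.6 and 13.8 in KO. Aldolase Aldoa had 1086 and 1036 CPM in WT and 534 and 422 in KO. Eno1, the enolase, had 299 and 284 CPM in WT and 59.6 and 95.4 in KO. Pyruvate kinase Pkm had 1316 and 1249 CPM in WT, 542 in IMP1 KO and 305 in IMP2 KO, and Ldha, which turns pyruvate to lactate, 894 and 836 against 414 and 377. From import to lactate export the levels of these genes were below wild type in both knockouts, by 2-fold or more. The hypoxia-induced genes Bnip3 (36.4 and 55.1 CPM in WT, 15.1 and 19.9 in KO), Car9 (6.91 and 9.65, 1.38 and 3.99) and Ankrd37 (3.62 and 3.45, 1.38 and 0.860) were lower as well. Vegfa and Ndrg1, further hypoxia-induced genes, were not lower in both. Vegfa had 168 and 166 CPM in WT, 235 in IMP1 KO and 102 in IMP2 KO, and Ndrg1 17.7 and 19.5 in WT, 19.4 in IMP1 KO and 90.1 in IMP2 KO. Egln3, the oxygen sensor, was at 12.5 CPM in both WT libraries, 12.4 in IMP1 KO and 0.184 in IMP2 KO. Several of these enzymes have many processed pseudogenes, and reads that fit more than 1 place were not counted: Gapdh, an abundant message in most cells, had 3.35 and 3.57 CPM in WT and 1.98 and 1.84 in KO.

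**Figure D4:**
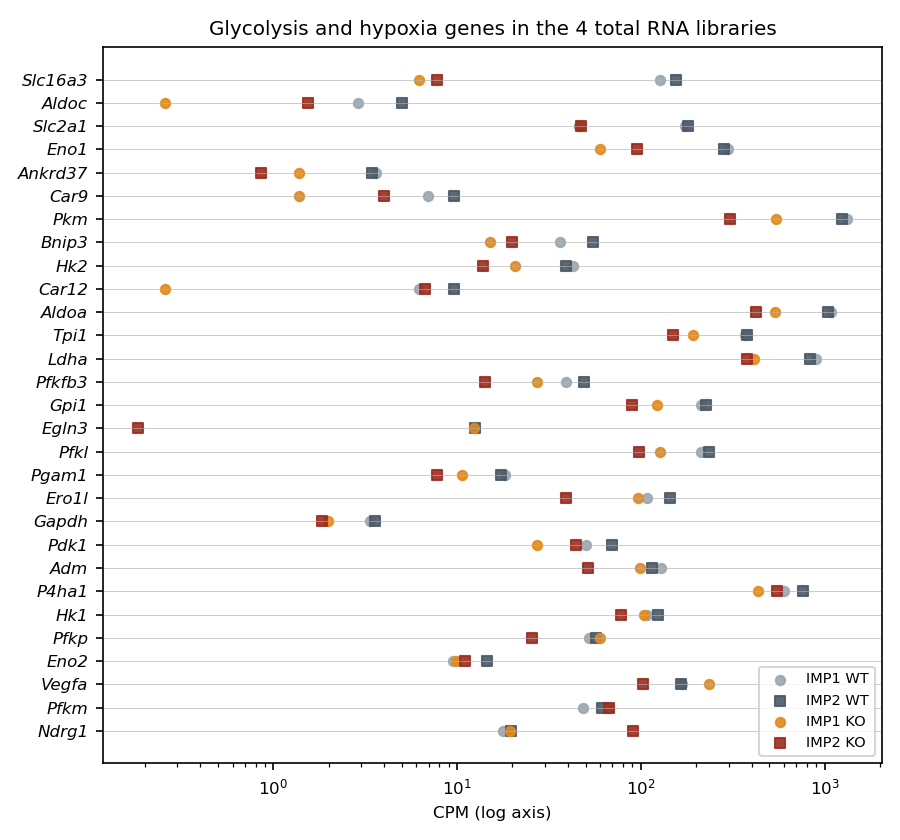
CPM (log axis) of the 29 tested genes of glycolysis and hypoxia in the 4 total RNA libraries, ordered by log2 fold change from the lowest at the top. Grey WT points lie to the right of the orange and red KO points in 23 of the 29 rows; Ndrg1 at the bottom is higher in IMP2 KO alone.

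Promoter sequence was read for this list because the hypoxia-inducible factors bind a short core, ACGTG or GCGTG, near the start of target genes. RefSeq windows of GRCm38.p6, from 250 bases before to 50 after the start, were found for all 23 lower members. ACGTG on either strand (its reverse reads CACGT) was in 14 of the 23 (60.9%) and in 15 of the 28 tested members with a window (53.6%), against 19.7% of all 27025 promoters and 25.8% of the 9935 tested autosomal genes with an entry, of 13246. GCGTG (reverse CACGC) was in 13 of the 23 (56.5%) and 14 of the 28 (50%), against 32.5% and 52.3%. The list was written to hold hypoxia-induced genes, so these shares describe the list and not its lower level. Windows were found for only 195 of the 254 shared lower genes, with ACGTG in 26.2% and GCGTG in 37.9% of them. Shared lower genes without a window were not read, so these shares cover part of that set. Matches of one core may overlap those of the other, and a match in a window is not a bound site. Windows are shown for the exporter with the largest difference of the list, for the importer and for Eno1, whose window holds GCGTG but no ACGTG. All are on the plus strand, 5′ to 3′, with both cores in capitals: Slc16a3 is chr11:120948817-120949116, Slc2a1 chr4:119108495-119108794 and Eno1 chr4:150236458-150236757.
Slc16a3: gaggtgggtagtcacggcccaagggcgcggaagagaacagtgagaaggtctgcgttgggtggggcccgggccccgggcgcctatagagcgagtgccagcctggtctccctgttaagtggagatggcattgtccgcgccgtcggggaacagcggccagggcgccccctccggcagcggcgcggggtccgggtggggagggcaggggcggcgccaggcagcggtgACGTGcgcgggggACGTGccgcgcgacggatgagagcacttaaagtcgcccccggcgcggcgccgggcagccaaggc
Slc2a1: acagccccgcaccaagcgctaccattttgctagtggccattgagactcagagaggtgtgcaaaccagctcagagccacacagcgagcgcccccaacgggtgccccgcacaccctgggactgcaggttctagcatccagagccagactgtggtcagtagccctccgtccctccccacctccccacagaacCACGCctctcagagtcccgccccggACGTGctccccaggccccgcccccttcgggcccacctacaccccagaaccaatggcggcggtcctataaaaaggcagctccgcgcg
Eno1: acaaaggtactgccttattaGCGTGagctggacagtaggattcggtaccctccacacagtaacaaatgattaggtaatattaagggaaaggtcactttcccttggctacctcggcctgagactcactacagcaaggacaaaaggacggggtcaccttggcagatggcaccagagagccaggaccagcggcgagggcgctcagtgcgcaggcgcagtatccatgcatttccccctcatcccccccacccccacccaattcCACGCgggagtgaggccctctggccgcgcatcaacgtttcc

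Most posterior Hox genes were lower in both knockouts. Hox genes lie in clusters named A to D, and those with numbers from 9 up, at the 5′ end of a cluster, are used in the posterior trunk and along the limb. Of 39 Hox genes 33 passed the filter, 14 with numbers 9 to 13 and 19 with numbers 1 to 8. Of the 14, both KO libraries lay below both WT libraries for 12 and above for 0, and all 12 were at least 2-fold lower in both pairs. Without IMP1 KO all 14 lay below, and without IMP2 KO 12. In these settings the shares of all genes that lay below are also larger, as given for the glycolysis list. Of the 19, 2 lay below and 4 above, and 1 (Hoxd8) was at least 2-fold lower in both. Over all tested autosomal genes 23.1% lay below, 23.8% lay above, and 4.08% were at least 2-fold lower in both.

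The 12 posterior genes low in both knockouts came from the A, C and D clusters. Hoxd10 had 3.82 and 7.25 CPM in WT, 0 in IMP1 KO and 0.307 in IMP2 KO. Hoxa10 had 36.2 CPM in IMP1 WT, 53.6 in IMP2 WT, 0.259 in IMP1 KO and 4.67 in IMP2 KO. Hoxc10 had 23.2 and 23.6 CPM in WT, 2.93 in IMP1 KO and 2.46 in IMP2 KO (adjusted p = 0.196 at a log2 fold change of -3.12). Each of these separated the groups, and Hoxc10 did so with nearly equal levels within them. Hoxa9 kept more of its level in IMP1 KO, with 23.9 and 27.6 CPM in WT, 10.9 in IMP1 KO and 2.27 in IMP2 KO.

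The exceptions, Hoxb9 and Hoxc9, followed the middle of the B and C clusters, which was low mainly in IMP2 KO. Hoxb9 had 77.5 and 51.7 CPM in WT, 105 in IMP1 KO and 4.73 in IMP2 KO. Hoxc8 had 48.8 and 37.4 CPM in WT, 160 in IMP1 KO and 4.48 in IMP2 KO. At the 3′ end of the A cluster the order was reversed, and Hoxa3 had 11.9 and 10.5 CPM in WT, 32.5 in IMP1 KO and 20.6 in IMP2 KO. Over all 33 Hox genes the median log2 ratio was -0.03 in the IMP1 pair and -3.07 in the IMP2 pair, and the median log2 fold change of -0.71 turned to 0.028 without IMP2 KO. Many neighbouring Hox genes overlap each other or antisense transcripts, and whether counting used strand is not stated in the labels or notes.

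**Figure D5:**
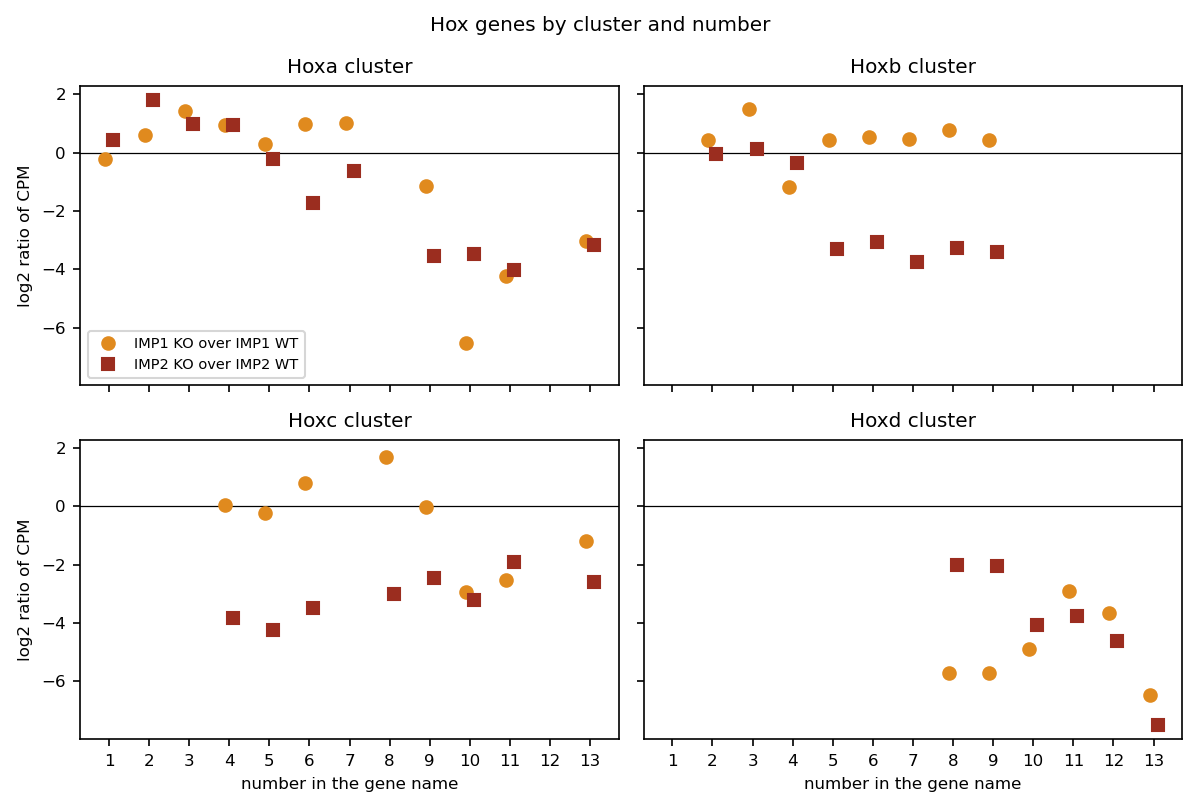
Log2 ratio of CPM, KO over WT of the same pair (circles IMP1, squares IMP2), for the tested Hox genes of each cluster by the number in the gene name. Numbers 9 to 13 of the A and D clusters and 10 to 13 of the C cluster are below 0 in both pairs, whereas numbers 5 to 9 of the B cluster and 4 to 9 of the C cluster reach their lowest ratios in the IMP2 pair, with IMP1 ratios near or above 0.

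Some other transcription factors of limb and face were lower in both knockouts. Of 60 positional factors outside the Hox clusters 46 passed the filter, and both KO libraries lay below both WT libraries for 20 (43.5%) and above for 9 (19.6%), against 23.1% and 23.8% of all genes. At least 2-fold lower in both pairs were 13, against 4.08% of all genes, and 4 were higher, against 2.5%. Tbx5, a T-box factor of the forelimb, had 16.4 and 21.1 CPM in WT, 0 in IMP1 KO and 1.23 in IMP2 KO. Tbx4 and Pitx1, factors of the hindlimb, had 16.8 and 23.7, and 38.7 and 47.5 CPM in WT. In the knockouts Tbx4 had 0 and 2.52 CPM and Pitx1 0.0862 and 4.54. Thus factors of both limb pairs were lower, and IMP1 KO was at or close to 0 for each. Shox2, a homeobox factor of the proximal limb, was lower in IMP2 KO (2.82 CPM) than in IMP1 KO (7.24), with 39.3 and 59.1 in WT. Six2, Lmx1b, Hand2, Alx1, Lhx2, Tbx3 and Lhx9 were also among the 13. The 4 higher were Foxd1, Foxf1 (13.2 and 10.7 CPM in WT, 38.6 and 23.9 in KO), Meis2 (74.6 and 66.9, 170.0 and 134) and Meox1 (4.83 and 8.54, 15.1 and 49.1), a somite homeobox gene. The list was unequal between the pairs, with a median log2 ratio of -2.8 in the IMP1 pair and -0.22 in the IMP2 pair.

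Genes of a list of p53 targets and senescence, which includes Trp53 itself, were more often below than above wild type. The stress factor p53 answers DNA damage and growth in culture by inducing cell cycle inhibitors and pro-death genes. Of 27 tested genes (of 28), both KO libraries lay below both WT libraries for 16 (59.3%) and above for 3 (11.1%), against 23.1% and 23.8% of all genes. An unadjusted p under 0.05 was found for 14, against 11.9% of all genes in either direction. DESeq2 called 7 lower and 1 higher, against 2.36% and 2% of all genes. The median log2 fold change was -0.45. Cdkn1a, the p21 inhibitor of cyclin-dependent kinases, had 817 CPM in IMP1 WT, 804 in IMP2 WT, 348 in IMP1 KO and 269 in IMP2 KO (log2 fold change -1.39, SE 0.24). Mdm2, the ligase that removes p53, had 246 and 234 CPM in WT, 137 in IMP1 KO and 89.6 in IMP2 KO. Perp, a desmosome and death gene, had 72.0 and 43.6 CPM in WT, 0.345 in IMP1 KO and 4.05 in IMP2 KO. The groups did not overlap for any of the 3. Cdkn1a, Perp, Btg2, Plk3 and Pmaip1 were at least 2-fold lower in both pairs, and Mdm2 was less than 2-fold lower in the IMP1 pair. The message of p53 itself, Trp53, was among the 16 but differed little, at 111 and 93.0 CPM in WT and 84.1 and 86.0 in KO. On the other side, the inhibitor Cdkn1b had 39.7 and 47.4 CPM in WT and 92.8 and 99.0 in KO, and Ddb2, a DNA damage sensor, 1.07 and 2.63 against 2.93 and 6.88.

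The cell cycle list was split between the knockouts. Of 44 genes of cell cycle and DNA replication, both KO libraries lay above both WT libraries for 1 (2.27%) and below for 6 (13.6%). Over all genes these shares were 23.8% and 23.1%. At least 2-fold away in both pairs were 0 in either direction. Its median log2 ratio was 0.12 in the IMP1 pair and -0.36 in the IMP2 pair. Left with IMP2 KO alone, 34 of the 44 lay below both WT libraries, and with IMP1 KO alone 28 lay above them. The shares over all genes are also larger with 1 knockout left. The share below both WT libraries without IMP1 KO is given above. The count above them without IMP2 KO lies within the range given there, so 28 of 44 is not read as a difference.

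Messages reported to be bound by IMP proteins were next compared. The list was drawn from the general literature, and not every member is reported here. Of 16 tested (of 20), both KO libraries lay below both WT libraries for 9 (56.2%, against 23.1% of all genes) and above for 0, and 4 were at least 2-fold lower in both pairs (25%, against 4.08%). Cd44, the receptor of hyaluronan, had 952 CPM in IMP1 WT, 640 in IMP2 WT, 194 in IMP1 KO and 42.9 in IMP2 KO (log2 fold change -2.75, SE 0.84). The chromatin architectural genes Hmga1 and Hmga2, oncofetal partners of the IMP genes, were lower too. Hmga2 had 506 and 243 CPM in WT, 105 in IMP1 KO and 35.6 in IMP2 KO, and Hmga1 128 and 59.3 in WT, 14.9 in IMP1 KO and 5.77 in IMP2 KO, where reads shared with pseudogenes are not counted. Ptgs2, the inducible prostaglandin synthase, had 752 and 468 CPM in WT, 73.0 in IMP1 KO and 6.75 in IMP2 KO. All 4 were higher in IMP1 WT than in IMP2 WT, and lower in IMP2 KO than in IMP1 KO. In the IMP1 pull-down their log2 fold changes against IgG were 0.25 (Cd44), -1.04 (Hmga1), -0.65 (Hmga2) and 0.1 (Ptgs2). In the IMP2 pull-down they were 0.44, 1.12, -0.47 and -0.09, in the same order. Actb, whose message carries the zipcode bound by IMP1, had 4318 and 3198 CPM in WT and 2487 and 2141 in KO. Igf2, after which the proteins are named, did not move one way: it had 1619 CPM in IMP1 WT, 505 in IMP2 WT, 37.9 in IMP1 KO and 1025 in IMP2 KO.

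Genes of IGF and insulin signalling lay above or below wild type no more often than all genes. Of 33 tested genes (of 34), both KO libraries lay above both WT libraries for 5 (15.2%) and below for 7 (21.2%), against 23.8% and 23.1% of all genes. Pik3r1, the regulatory subunit of PI3 kinase, had 60.6 and 80.0 CPM in WT, 139 in IMP1 KO and 286 in IMP2 KO. Igf1, the other ligand of the receptor, had 25.8 and 47.0 CPM in WT, 57.7 in IMP1 KO and 206 in IMP2 KO. These were the genes of the list at least 2-fold higher in both pairs, and Igf2r, the receptor that clears IGF2, was lower, at 404 and 581 CPM in WT and 199 and 304 in KO.

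Adhesion receptors were more often below than above wild type. Of 29 adhesion receptors tested (of 33), both KO libraries lay below both WT libraries for 12 (41.4%) and above for 5 (17.2%), against 23.1% and 23.8% of all genes, and 6 were at least 2-fold lower in both pairs (20.7%, against 4.08%). Itga5, the fibronectin receptor subunit, had 1032 and 801 CPM in WT, 325 in IMP1 KO and 146 in IMP2 KO. Its partner Itgb1 had 3915 and 3920 CPM in WT, 2249 in IMP1 KO and 1665 in IMP2 KO. Itga3, a laminin receptor subunit, had 113 and 54.4 CPM in WT and 10.8 and 17.6 in KO. The mesenchymal cadherin Cdh11 went the other way, with 371 and 472 CPM in WT and 1247 and 1254 in KO (log2 fold change 1.57, SE 0.25). Cd44, Ncam1, Itga4 and Itgb7 were the others at least 2-fold lower.

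Among 22 tested proteases and inhibitors (of 24), 8 lay below (36.4%) and 3 above (13.6%), against 23.1% and 23.8% of all genes. Plaur, the urokinase receptor, had 198 and 80.6 CPM in WT and 31.6 and 12.8 in KO, and Plat, a plasminogen activator, 117 and 181 against 28.3 and 41.2. The collagenase Mmp13 was at 10.5 and 15.2 CPM in WT and 1.64 and 3.25 in KO. Receptor, activator and collagenase were thus all lower in both knockouts. Adamts2, which trims procollagen, was higher, at 44.2 and 61.5 CPM in WT, 401 in IMP1 KO and 139 in IMP2 KO. The list's median log2 fold change of 0.16 and its median log2 ratios of -0.33 and -0.3 differed in sign, and the former was negative without any 1 of IMP1 WT, IMP1 KO or IMP2 KO.

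Chemokines and inflammatory factors lay on both sides of wild type. Of 25 tested (of 30), both KO libraries lay above both WT libraries for 7 (28%) and below for 9 (36%), against 23.8% and 23.1% of all genes. At least 2-fold higher in both pairs were 4, and 7 were lower (16% and 28%, against 2.5% and 4.08%). Beside Cxcl12, the complement component C3 was higher, at 3.76 and 7.95 CPM in WT, 16.3 in IMP1 KO and 306 in IMP2 KO, as was the iron-binding Lcn2 (2.01 and 3.04, 7.41 and 20.4). The interleukin-6 family members Lif and Il11 were lower. Lif had 24.2 and 18.8 CPM in WT and 3.36 and 1.29 in KO, and Il11 7.11 and 4.74 against 2.59 and 1.60. Il1rl1, the receptor of interleukin-33, had 269 and 365 CPM in WT, 1.47 in IMP1 KO and 97.6 in IMP2 KO, so that it was low in both but far lower in IMP1 KO.

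Parts of the Wnt pathway were higher in both knockouts, while other parts went in opposite directions in the knockouts. Wnt ligands bind Frizzled receptors, R-spondins amplify the signal, and secreted Frizzled-related proteins and Naked cuticle proteins restrain it. Of 43 tested genes (of 49), both KO libraries lay above both WT libraries for 14 (32.6%, against 23.8% of all genes) and below for 9 (20.9%, against 23.1%), and 8 were at least 2-fold higher in both pairs (against 2.5%) with 1 lower. Among ligands, Wnt5b had 4.29 and 6.61 CPM in WT and 9.83 and 19.8 in KO, and Wnt6 was at 0.268 to 4.97 CPM. Among receptors, Fzd1 had 73.7 and 96.1 CPM in WT, 245 in IMP1 KO and 546 in IMP2 KO, and Ror1, the Wnt5a receptor, 9.19 and 12.98 in WT, 114 in IMP1 KO and 34.7 in IMP2 KO. The amplifier Rspo3 had 61.7 and 92.5 CPM in WT, 966 in IMP1 KO and 523 in IMP2 KO (log2 fold change 3.27, SE 0.45). The inhibitor Frzb had 12.1 and 13.2 CPM in WT, 174 in IMP1 KO and 38.4 in IMP2 KO, and the Dickkopf inhibitor Dkk2 27.8 and 47.0 in WT, 12.3 in IMP1 KO and 2.89 in IMP2 KO. The receptors Fzd1 and Ror1 and the amplifier Rspo3 were thus higher, and inhibitors were found on both sides. Axin2, a common target of the pathway, had 0.738 and 0.994 CPM in WT, 0.0862 in IMP1 KO and 4.97 in IMP2 KO, on opposite sides of wild type and at low counts. At least 2-fold higher in IMP1 KO and lower in IMP2 KO were 3 genes of the list, and 6 went the reverse way. Over all 13250 genes tested these counts were 111 and 300.

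In FGF signalling, ligands were found on both sides of wild type. Fgf2 had 9.32 and 7.37 CPM in WT and 3.88 and 0.860 in KO. Fgf5 had 1.95 and 3.68 CPM in WT and 0.172 and 0.184 in KO. Fgf9 had 1.61 and 1.23 CPM in WT and 0 in both KO libraries. These low-level ligands were below wild type in both knockouts, whereas Fgf18, an FGF of bone and cartilage, was higher, at 2.55 and 4.27 CPM in WT, 67.1 in IMP1 KO and 19.8 in IMP2 KO. Dusp6, a phosphatase induced by FGF signalling, had 44.4 and 36.0 CPM in WT and 21.6 and 10.8 in KO, and the ETS factor Etv4 27.2 and 19.1 against 7.59 and 2.89. The receptor Fgfr2 had 69.4 and 59.5 CPM in WT, 184 in IMP1 KO and 586 in IMP2 KO. Of the 32 tested genes of FGF, hedgehog and Notch signalling (of 40), 4 were at least 2-fold higher and 6 lower in both pairs (12.5% and 18.8%, against 2.5% and 4.08% of all genes). The Notch target Hey2 (1.41 and 1.05 CPM in WT, 10.3 and 5.96 in KO) and the Notch ligand Dll1, at 0.0585 to 5.10 CPM, were the other genes among the 4.

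Most tested adipocyte genes were higher in both knockouts at low levels. Of 13 markers 7 passed the filter, and 5 of these (71.4%, against 2.5% of all genes) were at least 2-fold higher in both pairs. The others tested did not follow: log2 ratios in the IMP1 and IMP2 pairs were 2.22 and -1.83 for Adrb3, and -1.59 and 0.21 for Cd36. Pparg, the nuclear receptor that drives fat cell formation, had 8.52 and 4.56 CPM in WT, 24.2 in IMP1 KO and 58.5 in IMP2 KO. Cebpa, its partner factor, had 5.23 and 6.43 CPM in WT, 23.0 in IMP1 KO and 32.8 in IMP2 KO (log2 fold change 2.26, SE 0.28). Lpl, the lipoprotein lipase, had 12.9 and 14.6 CPM in WT, 81.6 in IMP1 KO and 54.6 in IMP2 KO. The lipid carrier Fabp4 and the droplet protein Plin4 were higher in IMP2 KO (59.5 and 47.9 CPM) than in IMP1 KO (14.5 and 11.8). All 5 separated the groups.

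Imprinted genes, which are read from 1 parental copy and include growth regulators of the fetus, were above wild type for 9 of 27 tested (of 32) and below for 4 (33.3% and 14.8%, against 23.8% and 23.1% of all genes). At least 2-fold lower in IMP1 KO and higher in IMP2 KO were 6 of the 27, against 300 of all 13250 autosomal genes tested. Plagl1, a zinc finger factor of the imprinted gene network, had 70.2 and 70.9 CPM in WT, 322 in IMP1 KO and 367 in IMP2 KO, with close values within each group (log2 fold change 2.29, SE 0.17). Dlk1, which holds back fat cell formation, had 147 and 53.7 CPM in WT, 328 in IMP1 KO and 2396 in IMP2 KO. Nnat, a small membrane proteolipid, had 5.97 and 3.801 CPM in WT and 0.517 and 0.675 in KO.

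Matrix genes other than those named were mostly at the share of all genes. Of 38 tested matrix glycoproteins and proteoglycans (of 41), 7 lay above (18.4%) and 8 below (21.1%), against 23.8% and 23.1% of all genes, with Nid2, a basement membrane nidogen (129 and 137 CPM in WT, 360 and 1122 in KO), and Aspn, a small leucine-rich proteoglycan (234 and 453, 757 and 2212), higher. Fbln2, a fibulin of elastic fibres, was lower, at 5562 and 5939 CPM in WT, 2739 in IMP1 KO and 780 in IMP2 KO. Of 19 collagens tested (of 21), 3 lay above (15.8%) and 4 below (21.1%), and Col7a1, the anchoring fibril collagen, was lower, at 36.4 and 33.9 CPM in WT, 7.76 in IMP1 KO and 1.41 in IMP2 KO. The fibroblast marker S100a4 had 1205 and 1014 CPM in WT and 212 and 173 in KO. In oxidative phosphorylation (48 tested) and among cytosolic ribosomal proteins (56 tested) 0 genes were at least 2-fold away in both pairs. Below both WT libraries lay 11 and 14 (22.9% and 25%, against 23.1% of all genes). Cholesterol and fatty acid synthesis (29 tested), endoplasmic reticulum chaperones (30) and the proteasome and lysosome (31) likewise had 0 genes at least 2-fold away in both pairs. Yet 11, 12 and 14 genes of these 3 lists lay below both WT libraries (37.9%, 40% and 45.2%, against 23.1%). Above both lay 4, 8 and 5 (13.8%, 26.7% and 16.1%, against 23.8%). Of 36 interferon-stimulated genes 8 lay above (22.2%) and 2 below (5.56%), against 23.8% and 23.1% of all genes.

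The pull-down libraries served to ask whether the shared genes were themselves recovered with the proteins. A log2 fold change against IgG was available for 164 of the 203 shared higher and 207 of the 254 shared lower genes. Of 11598 autosomal genes measured in both sets of libraries, 36.7% were called higher and 25.3% lower in the IMP1 pull-down by edgeR, and 46.9% and 29.5% in the IMP2 pull-down. In the IMP1 pull-down the shared higher genes had a median of -0.061, with 29.9% called higher, and the shared lower genes a median of -0.057, with 24.2% called higher. In the IMP2 pull-down the medians were -0.023 and 0.193, with 31.1% and 48.3% called higher. The 9447 measured genes with at least 10 CPM in total RNA had medians of 0.089 and 0.232, with 42.2% and 54.0% called higher. The medians of both shared sets were below that of all such genes in both pull-downs, a difference that was not tested. Scaling shifts all genes of a pull-down nearly alike, so the 3 scalings tried could not change this difference and are no support for it. The sign of a median depended on the scaling, and that of the shared higher genes in the IMP2 pull-down was -0.202 with upper quartile scaling and 0.152 with total count scaling, where all such genes had 0.054 and 0.407.

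Genes that differed at least 2-fold in opposite directions included secreted and matrix proteins at high level. Igfbp5, which binds IGFs in the matrix, had 334 CPM in IMP1 WT, 374 in IMP2 WT, 8.71 in IMP1 KO and 7477 in IMP2 KO. Acan, the aggregating proteoglycan of cartilage, had 3.82 and 1.64 CPM in WT, 0.0862 in IMP1 KO and 248 in IMP2 KO. Gdf10, a BMP family member, had 3.35 and 2.46 CPM in WT, 0 in IMP1 KO and 100.3 in IMP2 KO, and the sine oculis-binding gene Sobp 2.48 and 1.40 in WT, 0 in IMP1 KO and 27.6 in IMP2 KO. The WT libraries lay between the knockouts in each case. In the reverse pattern, the acute-phase gene Saa3 had 1.14 and 2.46 CPM in WT, 59.7 in IMP1 KO and 0.184 in IMP2 KO. Parm1, a mucin-like membrane protein, had 39.8 and 51.0 CPM in WT, 252 in IMP1 KO and 6.39 in IMP2 KO. Ctla2a, a cysteine protease inhibitor with close paralogues, had 20.5 and 25.03 CPM in WT, 129 in IMP1 KO and 2.09 in IMP2 KO. Nkd2, the paralogue of Nkd1, had 4.56 and 4.74 CPM in WT, 38.9 in IMP1 KO and 0.553 in IMP2 KO, unlike Nkd1, which was high in both. For such genes the group means of the knockouts describe neither library.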

How the data were processed

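RNA was sequenced from mouse embryonic fibroblasts in 4 total RNA libraries (2 WT, 2 KO) and 9 pull-down libraries, prepared by TruSeq chemistry (labels' protocols). The authors deposited raw counts for each Ensembl gene. They used STAR and HTSeq with mm10, per the submitters' processing notes, and neither versions, annotation release nor strand setting are given in the sources used here. The 5 tally lines of each file were set apart. Records aligned to more than 1 place, which the counts leave out, were 38.43% to 40.88% of all records in total RNA. Of 43629 gene IDs 42462 had a symbol, and 33284 matched RefSeq's GRCm38.p6 table, the source of positions, chromosomes and promoter sequence. Depth was 11430002 to 17225308 counts in total RNA, and a floor of 3 counts was 0.1742 to 0.2625 CPM; floors and intervals cover counting error only.

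Groups were taken from the labels. The main test was edgeR 4.0.16 (R 4.3.3), quasi-likelihood, KO against WT, TMM scaling, default expression filter (minimum count 10), no covariate, Benjamini-Hochberg adjustment over 14064 genes and a threshold of 0.05, 2-sided. A standard error is the fitted log2 fold change over the root of its F statistic. Log2 ratios within a pair used a prior count of 2. DESeq2 1.42.0 and limma voom 3.58.1 were alternatives, with 3 other scalings, other filters, a block for the line, and leaving out every library in turn. Pull-downs were fitted with edgeR in 1 fit of 9 libraries. Libraries are not stated to be separate animals or cultures, so p-values measure only the spread between these samples. The fitting step was tested on simulated data.

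The named genes are the 15 with the largest smaller log2 ratio of the pairs in each direction, and 4 of each opposite pattern, with at least 10 CPM in 1 library, on autosomes, leaving out predicted genes and pseudogenes; the IMP family, 4 Y-linked genes and Xist, and leading members of the lists discussed were added. Some named genes are not reported here. Anxa8 and Gja1 were picked for their p-values, after seeing them. The comparison, the 37 gene lists, written from general knowledge, and the motifs were chosen with earlier results of these data known.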

Additional observations from a re-analysis of the deposited data

Results flagged for a closer look

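Some genes and lists differed from wild type in opposite directions in the 2 knockouts. With 1 library per knockout and WT, the difference between the pairs was not tested. Log2 ratios are given as KO over WT of the same pair, IMP1 first.

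The 8 genes named for this pattern were Saa3 (5.55 and -3.03), Nkd2 (3.05 and -2.83), Parm1 (2.66 and -2.97), Ctla2a (2.64 and -3.5), Gdf10 (-4.71 and 5.28), Igfbp5 (-5.24 and 4.32), Sobp (-4.29 and 4.18) and Acan (-4.17 and 7.13). The ligand Igf2 had -5.41 and 1.02, and Igf2bp3, the third member of the IMP family, 0.34 and -1.07. Among genes of the lists, Axin2 had -1.99 and 2.18, Hoxb9 0.44 and -3.42, Hoxc8 1.71 and -3.02, and Vegfa 0.49 and -0.69.

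Cartilage genes had a median of -1.04 in IMP1 KO and 3.96 in IMP2 KO, macrophage genes -2.67 and 3.16, and bone genes -0.41 and 1.34. Smaller medians of opposite sign were those of collagens (-0.1 and 0.28), interferon-stimulated genes (-0.02 and 0.55), TGF-beta and BMP signalling (-0.1 and 0.04), FGF, hedgehog and Notch signalling (0.16 and -0.12), cell cycle (0.12 and -0.36), ribosomal proteins (-0.23 and 0.07) and nuclear long non-coding RNAs (-0.02 and 0.26).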

How the results depend on the processing

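The absence of calls in the main test depended on the tool, on the filter on low counts and on having both knockouts in the fit. The count was 0 in each direction with upper quartile, total count or DESeq2 size factor scaling, with a filter of 10 CPM, with autosomal genes alone, with limma voom and without either WT library. It was 2 higher and 3 lower with no filter on low counts, and 265 and 313 with DESeq2. Leaving out 1 library gave 0 to 2477 higher and 0 to 2433 lower, with 1342 and 1657 without IMP2 KO, where the lone knockout is assumed to vary like the WT libraries. Genes sharing direction numbered 509 higher and 498 lower at 1.5-fold, and those of opposite direction 176 and 295. Other levels, prior counts and scalings kept these counts within 1.5 times.

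The numbers in the labels pair a KO with a WT by line name only, with no shared litter or day. The IMP1 minus IMP2 difference of the WT libraries correlated with that of the KO libraries at 0.235 across genes. With the line as a block edgeR called 0 genes in each direction, and 1323 at an unadjusted p under 0.05 against 1575 without it.

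The 30 genes named as shared kept their direction under each alternative in which they were tested. They were chosen for large ratios of 1 direction in both pairs, so this outcome was fixed by the choice and is no support. Genes of opposite direction took that of the remaining knockout when 1 was left out, which follows from how they were chosen. Log2 fold changes ran from -3.272 to 5.02 for Saa3, -3.079 to 3.058 for Nkd2, -2.853 to 2.469 for Parm1, -3.468 to 2.498 for Ctla2a, -8.4 to 5.091 for Gdf10, -5.346 to 4.377 for Igfbp5, -7.816 to 3.818 for Sobp, -4.841 to 6.504 for Acan and -1.139 to 0.3755 for Igf2bp3. With the block, the signs also turned for Parm1 (-0.118), Ctla2a (-0.3118) and Igfbp5 (-0.4284). With limma voom they turned for Nkd2 (-0.3609), Parm1 (-0.2795), Ctla2a (-0.7515), Igfbp5 (-0.7151) and Sobp (-0.2297). The cause was not tested. Among lists, the medians of glycolysis, p53 targets and senescence, reported IMP ligands, adhesion receptors, positional factors, Wnt and adipocyte genes kept their sign under every alternative run.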
